A study of Mus musculus with 6 samples.

Results

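The genes examined were the 7 members of 3 families of mRNA decay factors, chosen by name: Zfp36, Zfp36l1 and Zfp36l2 of the ZFP36 family, Zc3h12a (Regnase-1) and Zc3h12d (Regnase-4) of the Regnase family, and Rc3h1 (Roquin-1) and Rc3h2 (Roquin-2) of the Roquin family. All 7 were among the 12431 genes of the count table and among the 10514 that passed the filter on low counts. Follicular B cells (CD21/35-, CD23+) were sorted from the spleens of adult male mice and their polyA RNA was sequenced after 1 h of culture in complete RPMI with no added stimulus. WT mice were Gpr174+/Y and KO mice were Gpr174-/Y, carrying an in-frame tdTomato reporter in place of the coding exon of Gpr174 in every cell. Gpr174 is X-linked and encodes a receptor for lysophosphatidylserine that couples to Gαs, the G protein subunit that raises cAMP. There were 3 libraries per genotype, from 3 mice each, with 8452460 to 10944833 counts per library.

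Proteins of the ZFP36 family bind AU-rich elements in the 3′ UTRs of messages through tandem zinc fingers and recruit the CCR4-NOT deadenylase, so that the bound message loses its poly(A) tail and is degraded. Regnase-1 is an endonuclease that cuts stem-loops in the 3′ UTRs of cytokine and activation messages, and Roquin proteins bind such stem-loops and recruit deadenylation and decapping enzymes. Zfp36l1 and Zfp36l2 are known for holding developing B cells in quiescence. In mice, loss of Regnase-1 or a mutation of Roquin-1 is known to cause autoimmunity. Zfp36, Zfp36l1 and Zc3h12a were taken as inducible members, because they are early response genes in many cells, and Zfp36l2, Zc3h12d, Rc3h1 and Rc3h2 as constitutive members. Whether culture induced any of them here was not tested, since no uncultured library was among those compared.

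Decay factors can themselves carry the elements they bind. The heptamer TATTTAT, the core of the ZFP36 site, was searched on the sense strand of the longest annotated 3′ UTR of each gene, with overlapping matches counted. It was found in 5 of the 7 members, 3 times each in Zfp36, Zfp36l1, Zfp36l2 and Rc3h2 and 2 times in Rc3h1, and 0 times in either Regnase gene. Of the 9205 tested genes with an annotated 3′ UTR, 30.8% had at least 1. One site is shown for each of the 5 members, the one inside the longer form TTATTTATT, with a site from Tnf, the best known ZFP36 target, for comparison. Capitals mark the heptamer, and sequences run 5′ to 3′ on the strand of the gene (GENCODE transcripts, mm10).
Zfp36, chr7:28376953-28376977, minus strand: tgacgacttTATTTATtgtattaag
Zfp36l1, chr12:80108169-80108193, minus strand: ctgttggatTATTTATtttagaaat
Zfp36l2, chr17:84184916-84184940, minus strand: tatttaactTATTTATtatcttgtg
Rc3h1, chr1:160970045-160970069, plus strand: tttactcatTATTTATtgagatgag
Rc3h2, chr2:37373289-37373313, minus strand: aagacatttTATTTATtttactctg
Tnf, chr17:35199684-35199708, minus strand: attatttatTATTTATttattattt
Tnf held 8 heptamers in a 3′ UTR of 764 bases. Zfp36 held its 3 in 774 bases, and Rc3h1 its 2 in 7181 bases. A match is a description of the letters and not of binding.

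Libraries were compared before use. WT replicate 2 stood apart on the first principal component of the 500 most variable genes, which held 40% of the variance, with a score of 32.5 where the other 5 libraries lay between -8.18 and -4.33. Where a result recomputed without this library changed its direction or its call, that value is given beside it. Library values are listed in the order of replicates 1, 2 and 3. Gpr174 had a mean of 127.6 CPM in WT (SD 7.43, n = 3) and of 99.95 CPM in KO (SD 0.205), and because the libraries were primed at the 3′ ends of transcripts and the allele replaces coding sequence, these counts do not check the genotype. Of 7 follicular B cell markers, 6 were in the table, and their summed level was 3410 to 3520 CPM in WT and 3940 to 4050 CPM in KO. The sums did not overlap, and 1 of the markers, Cd79b, was called lower in WT (edgeR adjusted p 0.0003584). Summed markers of myeloid cells were at 43 to 57.7 CPM in WT and 38.7 to 42.7 CPM in KO over 8 of 8 markers, with 0 called and none at 0 in any library. Sums for T cells (8 of 8 markers) were 48.1 to 65.8 CPM in WT and 34.9 to 54.4 CPM in KO, with Cd3g at 0 in 1 KO library. Those for NK cells (5 of 6) were 7.83 to 14.1 and 6.53 to 7.3 CPM, for marginal zone B cells (5 of 5) 1250 to 1340 and 1230 to 1420 CPM, for plasma cells (4 of 5, with Tnfrsf17 at 0 in 1 WT and 2 KO libraries) 94 to 105 and 89.2 to 103 CPM, and for erythroid cells (2 of 6) 29.7 to 64.6 and 34.2 to 120 CPM. Myeloid and NK sums did not overlap either and were higher in WT, while those of T, marginal zone B, plasma and erythroid cells overlapped. The myeloid sums of WT replicate 3 (43 CPM) and KO replicate 2 (42.7 CPM) were nearly equal. Among single myeloid markers, Cd68 and Fcgr3 did not overlap, while Csf1r, S100a8, S100a9, Lyz2, Itgam and Cd14 did. Of the NK markers only Gzma did not overlap (WT libraries 4.67 to 6.68 CPM, KO libraries 2.4 to 2.91 CPM). Just 2 NK markers were tested, and 0 were called. The part of these cell types in the results on decay factors was not tested. In bulk RNA, fewer cells that express a gene and less of its RNA per cell cannot be told apart.

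To ask whether the level of the decay factors differs with GPR174 early in culture, the 7 members were compared between WT and KO cells. Every library came from 1 h of culture, so a difference present before culture and one that arose in culture cannot be told apart. The comparison used edgeR's quasi-likelihood test over all 10514 genes, and called genes had a Benjamini-Hochberg adjusted p under 0.05. Of the 7 members, 0 were called, where 1.82% of all tested genes were, 1.3% higher in WT and 0.514% lower. At an unadjusted p under 0.05 there was 1, Zc3h12d, which was lower in WT, where 11.9% of all tested genes passed, 6.5% higher and 5.37% lower, and the same gene was called by DESeq2 and by limma-voom. Log2 fold changes, WT over KO, ran from -0.69 for Zc3h12d to 0.12 for Zfp36l2, 3 below 0 and 4 above, with a median of 0.05 against -0.003 over all tested genes. The sign of the members' median rested on single libraries, since it was -0.0285 without WT replicate 1 and -0.0478 without WT replicate 2. Apart from Zc3h12d, every member's 95% interval lay between -0.44 and 0.53 on the log2 scale. WT and KO libraries did not overlap in 1 of the 7 members, against 16.7% of all tested genes.

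**Figure D1:**
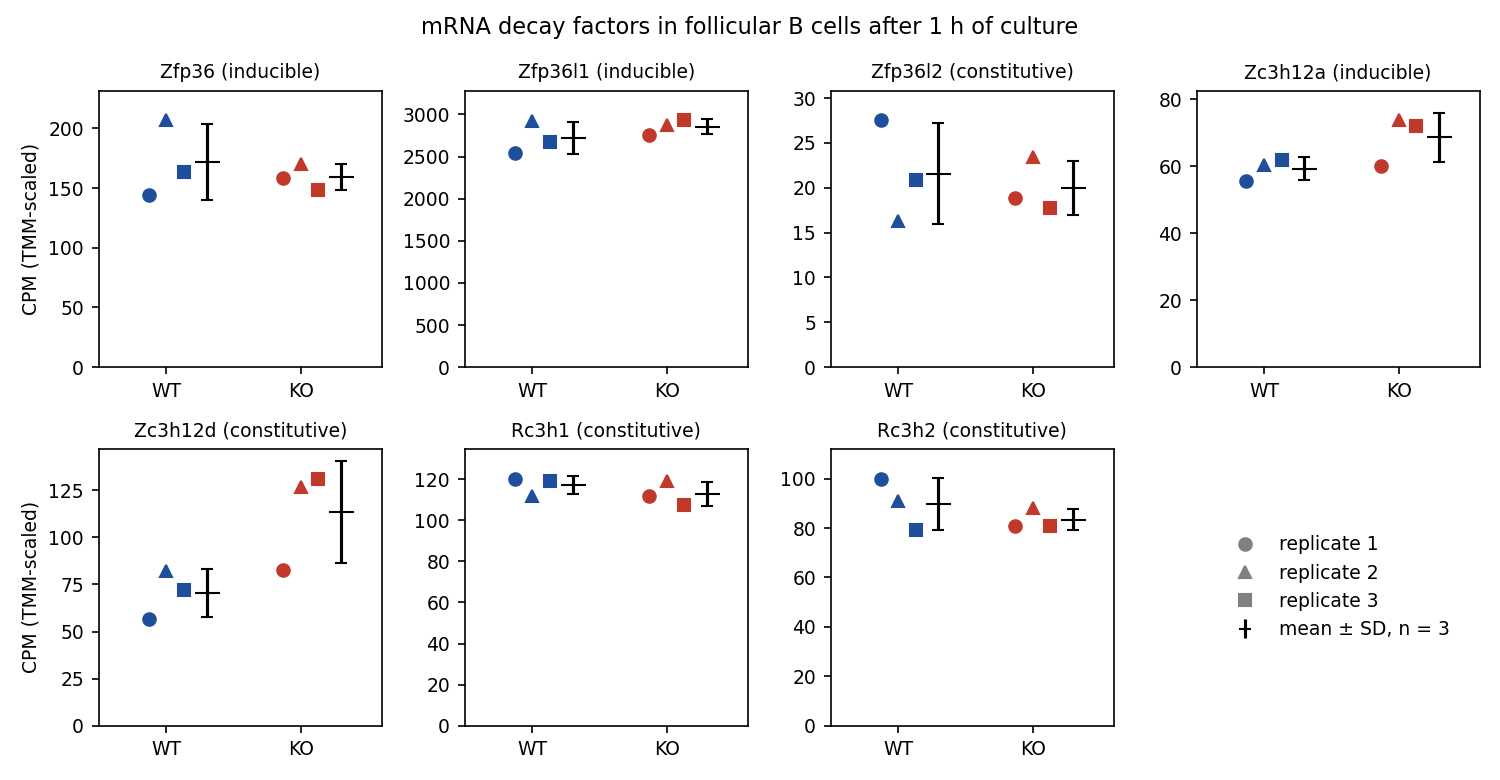
Level of each decay factor (y axis, CPM on TMM-scaled library sizes, starting at 0) in the 3 WT and 3 KO libraries (x axis), with points for single libraries and bars for the mean ± SD. WT and KO points overlap in 6 of the 7 panels, and for Zc3h12d the highest WT library (82.28 CPM) lies just below the lowest KO library (82.55 CPM).

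Zc3h12d encodes Regnase-4, a CCCH zinc finger ribonuclease found mainly in lymphocytes, and lies on chromosome 10 at 7832470 to 7870396 (mm10, plus strand). Its level was 56.91, 82.28 and 72.2 CPM in WT and 82.55, 126.8 and 131.2 CPM in KO. The groups did not overlap, but WT replicate 2 and KO replicate 1 were nearly equal. WT averaged 70.46 CPM ± 12.78 (SD, n = 3) and KO 113.5 CPM ± 26.91, so that WT cells held 62.07% of the KO level. The log2 fold change was -0.69 ± 0.19 (SE; 95% interval -1.12 to -0.26), with an unadjusted p of 0.005808 and an adjusted p of 0.1574 by edgeR's quasi-likelihood test. The gene was not called in this test.

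The call on Zc3h12d differed between ways of processing the counts. With DESeq2 its adjusted p was 0.00195, with limma-voom 0.0176, and 0.0142 in edgeR with ordinary in place of robust dispersions, while the log2 fold change was between -0.69 and -0.68 in these fits. Robust dispersions lower the denominator degrees of freedom of a gene whose libraries vary more than is usual at its level. Zc3h12d had 8.91, where the median over all tested genes was 26.6, and 0.561% of genes had as few or fewer. Leaving out KO replicate 1, the KO library nearest to WT, moved the log2 fold change to -0.88 and the edgeR adjusted p to 0.000245. Across the other 5 fits that left out one library the direction was kept and the edgeR adjusted p lay between 0.192 and 0.342. The fold change without WT replicate 2 was -0.82. A microRNA gene, Mir5104, lies within Zc3h12d on the same strand and Gm24726 on the opposite one, and the use of strand in counting is not given in the sources used here.

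**Figure D2:**
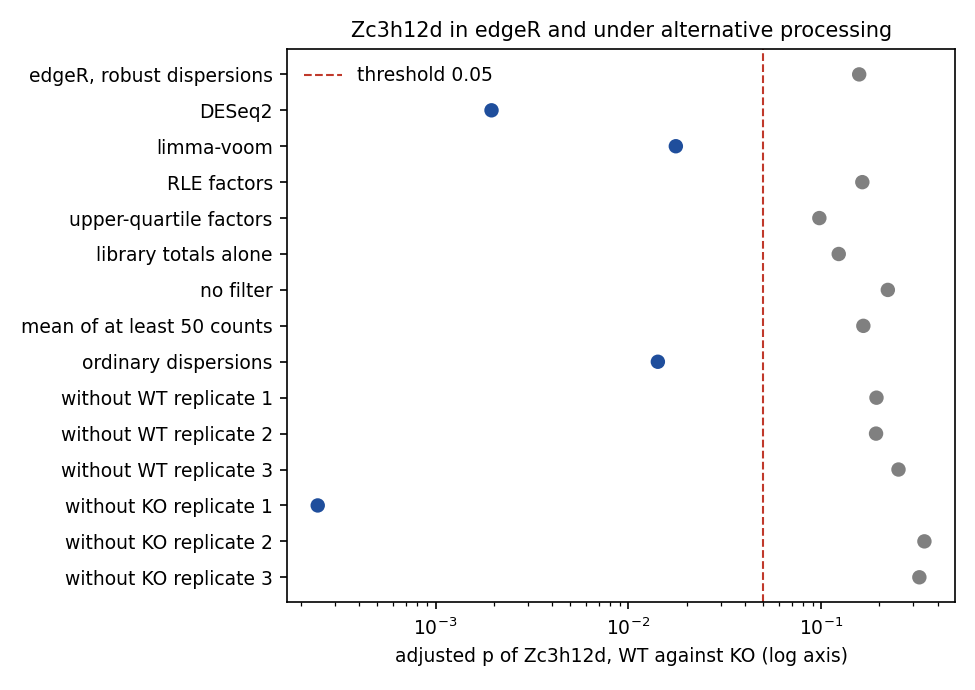
Adjusted p of Zc3h12d, WT against KO (x axis, log scale), in edgeR, in other tools, scalings and filters and with each library left out (y axis), with a dashed line at the threshold of 0.05 and blue points below it. DESeq2 (0.00195), limma-voom (0.0176), ordinary dispersions (0.0142) and omission of KO replicate 1 (0.000245) lie below the line, and edgeR with robust dispersions (0.157) lies above it.

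Zc3h12a encodes Regnase-1, the endonuclease of the family that is induced by NF-κB signals in many cells, and lies on chromosome 4 at 125118423 to 125127840. It was at 55.53, 60.34 and 61.87 CPM in WT and 60.16, 73.7 and 71.94 CPM in KO. KO replicates 2 and 3 were the highest libraries, and KO replicate 1 lay within the WT range. The log2 fold change was -0.21 ± 0.11 (SE; 95% interval -0.44 to 0.02), with an edgeR adjusted p of 0.4813. Both Regnase genes thus had values below 0 in this comparison, and only 1 other member did.

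Within the Regnase family the difference between the inducible and the constitutive gene was followed in each library, a contrast chosen after the values were seen. Log2 CPM of Zc3h12a minus that of Zc3h12d was -0.04, -0.45 and -0.22 in WT and -0.46, -0.78 and -0.87 in KO. WT values lay above KO values, again with WT replicate 2 next to KO replicate 1. The mean was -0.23 ± 0.21 (SD, n = 3) in WT and -0.70 ± 0.22 in KO, which is a description with no test. In the ZFP36 family the same kind of contrast overlapped between genotypes. For Zfp36 minus Zfp36l2 the mean was 3 ± 0.63 in WT and 2.99 ± 0.12 in KO. For Zfp36l1 minus Zfp36l2 it was 6.99 ± 0.47 in WT and 7.15 ± 0.21 in KO.

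Zfp36 encodes tristetraprolin, the ZFP36 protein best known for degrading Tnf messages, and is an immediate early gene. It lies on chromosome 7 at 28376784 to 28380253. Its level was 144.5, 206.9 and 163.7 CPM in WT and 158.6, 170.5 and 148.5 CPM in KO. The highest and the lowest of the 6 libraries were both WT. The log2 fold change was 0.11 ± 0.11 (SE; 95% interval -0.11 to 0.33), with an edgeR adjusted p of 0.7667. Its sign rested on WT replicate 2, without which the log2 fold change was -0.05 (edgeR adjusted p 0.907).

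Zfp36l1, an AU-rich element binding protein that B cells need during development and in the marginal zone, lies on chromosome 12 at 80107754 to 80113013. It was at 2546, 2921 and 2677 CPM in WT and 2760, 2877 and 2932 CPM in KO. The groups overlapped, and the means of 2715 CPM ± 190.1 (SD, n = 3) in WT and 2857 CPM ± 88.31 in KO differed by less than the SD in WT. With 23580 to 30320 counts per library, its log2 fold change of -0.07 ± 0.06 (SE) had the narrowest interval of the 7 members, from -0.20 to 0.05. The edgeR adjusted p was 0.7069.

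Zfp36l2, which acts with Zfp36l1 in developing B cells, lies on chromosome 17 at 84183931 to 84187947. It was at 27.54, 16.34 and 20.89 CPM in WT and 18.84, 23.44 and 17.74 CPM in KO. WT libraries were both the highest and the lowest of the 6. It rested on 137 to 301 counts per library, the fewest of the 7, and its interval was the widest of those 6 members with p above 0.05. The log2 fold change was 0.12 ± 0.20 (SE; 95% interval -0.29 to 0.53), with an edgeR adjusted p of 0.875. It changed sign without WT replicate 1, to -0.10 (edgeR adjusted p 0.912), and was 0.28 without WT replicate 2.

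The Roquin genes were not called. Rc3h1, on chromosome 1 at 160906418 to 160974978, was at 120.3, 112 and 119 CPM in WT and 112, 119.2 and 107.3 CPM in KO. Rc3h2, on chromosome 2 at 37370069 to 37422903, was at 100, 90.75 and 79.02 CPM in WT and 80.82, 88.31 and 81.01 CPM in KO. The genotypes overlapped for both genes, and for Rc3h2 the highest and the lowest library were both WT. Log2 fold changes were 0.05 ± 0.09 (SE; 95% interval -0.13 to 0.24) for Rc3h1 and 0.11 ± 0.10 (SE; 95% interval -0.10 to 0.32) for Rc3h2 (edgeR adjusted p 0.8716 and 0.7542). Annotated genes overlap Rc3h1 (Gm37052, Gm37809 and Gm37653) and Rc3h2 (Snord90) on the same strand, and Zfp36 (Gm44710), Zfp36l1 (Gm26669) and Zfp36l2 (AC132455.1) on the opposite one, so that reads from them could not be told apart with certainty.

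**Figure D3:**
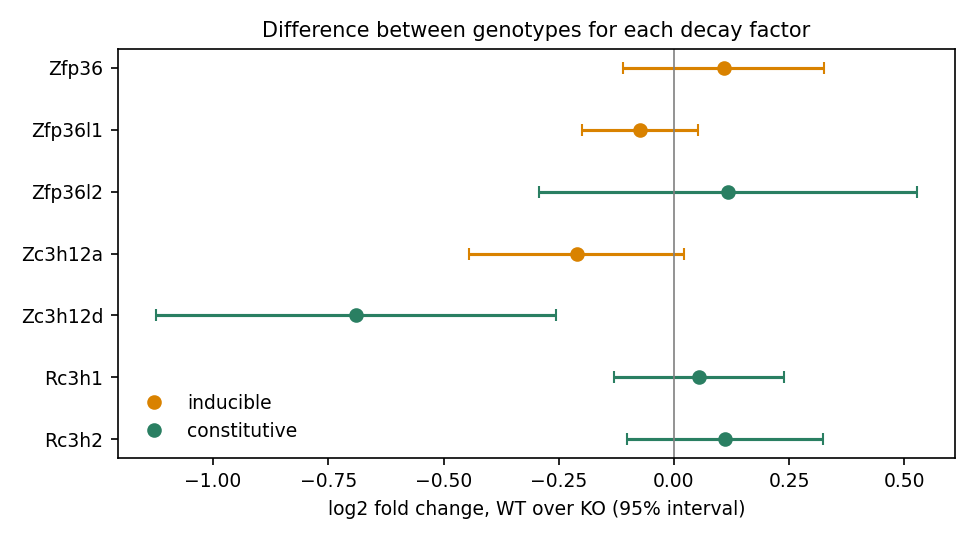
Log2 fold change, WT over KO (x axis), of each decay factor (y axis), with 95% intervals from edgeR's quasi-likelihood fit, inducible members in orange and constitutive members in green. The interval of Zc3h12d, from -1.12 to -0.26, is the only one that leaves out 0, before adjustment over all tested genes.

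Inducible and constitutive members were then contrasted in each library. The mean log2 CPM (prior count 2) of the 3 inducible members was 8.10, 8.38 and 8.23 in WT and 8.22, 8.37 and 8.30 in KO. For the 4 constitutive members it was 6.05, 5.93 and 5.95 in WT and 5.94, 6.23 and 6.07 in KO. The difference between both classes was 2.26 ± 0.20 (SD, n = 3) in WT and 2.22 ± 0.07 in KO, so the genotypes were 0.05 apart, less than the SD in either group, and the WT value ranged from 2.05 to 2.44 across libraries. Without WT replicate 2 the genotypes were -0.05 apart. The member with the log2 fold change farthest from 0 was a Regnase gene in each class, Zc3h12a among the inducible and Zc3h12d among the constitutive. Levels differ between genes in part through the priming and mapping of their 3′ ends, so only differences between genotypes are read from these means.

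The 3 genes whose pattern over the 6 libraries lay nearest to that of Zc3h12d were Trip6, Egr3 and Fam167a, out of 9681 compared. Likeness was the root mean square difference of log2 CPM after each gene was centred on its mean, and it was 0.0845 for Trip6, 0.125 for Egr3 and 0.132 for Fam167a. Egr3, an immediate early transcription factor of antigen receptor signalling, was at 9.972, 16.69 and 13.74 CPM in WT and 15.47, 25.07 and 20.47 CPM in KO. Its groups overlapped, as did those of Trip6 and Fam167a. Log2 fold changes of the 3 genes were -0.58, -0.60 and -0.47 at edgeR adjusted p 0.6739, 0.2294 and 0.2707, and none was called. Trip6 was at 2.47 to 4.972 CPM and its pattern rests on few counts.

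The enzymes that the decay factors recruit were examined next, as 27 genes of deadenylation and decapping, of which 26 were tested. In this list 2 genes were called higher in WT and 0 lower, or 7.69% where 1.82% of all tested genes were called, and the median log2 fold change was 0.03, or -0.0132 without WT replicate 2. Both called genes were anti-proliferative adaptors that bind the CCR4-NOT deadenylase. Tob2 was at 398.3, 445.5 and 415.6 CPM in WT and 197.4, 240.4 and 217.7 CPM in KO (log2 fold change 0.94, SE 0.08, edgeR adjusted p 4.491e-09). Every WT library was far above every KO library. Gm49476 overlaps Tob2 on the opposite strand. Btg2 was at 549.2, 615.4 and 554.2 CPM in WT and 387, 363.1 and 347.1 CPM in KO (log2 fold change 0.65, SE 0.07, edgeR adjusted p 5.593e-07). Both calls held in all 15 alternatives run. Their paralogues Tob1 and Btg1 were not called, with log2 fold changes of -0.22 ± 0.31 and -0.13 ± 0.07 (SE) at edgeR adjusted p 0.8474 and 0.4953. The scaffold Cnot1 had a log2 fold change of 0.04 ± 0.08, the decapping enzyme Dcp2 of 0.01 ± 0.11 and the exonuclease Xrn1 of 0.03 ± 0.11 (SE) at edgeR adjusted p from 0.8813 to 0.9884.

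Other proteins that bind AU-rich or related elements, among them the stabilising protein HuR (Elavl1) and the decay factors AUF1 (Hnrnpd) and KSRP (Khsrp), formed a list of 15 genes with 14 tested. Of these, 0 were called in edgeR, DESeq2 or limma-voom, where edgeR called 1.82% of all tested genes. At an unadjusted edgeR p under 0.05 there was 1, where 11.9% of all tested genes passed. That gene was Cpeb4, a cytoplasmic polyadenylation element binding protein, which had the largest value in the list. It was at 8.325, 12.4 and 9.082 CPM in WT and 7.827, 6.65 and 5.069 CPM in KO (log2 fold change 0.60, SE 0.28, edgeR adjusted p 0.4025). The list's median was 0.05. Elavl1, Hnrnpd and Khsrp had log2 fold changes of 0.10 ± 0.11, 0.06 ± 0.08 and -0.03 ± 0.08 (SE).

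Of 20 genes for regulators and partners of the decay factors, 19 were tested. In this list 1 was called higher in WT and 0 lower, or 5.26%, where 1.82% of all tested genes were called. The called gene was Dusp1, a phosphatase that turns off the p38 kinase pathway through which tristetraprolin is phosphorylated. It was at 67.98, 71.67 and 66.75 CPM in WT and 41.32, 40.34 and 39.87 CPM in KO (log2 fold change 0.76, SE 0.11, edgeR adjusted p 0.0001205). Ergic1 and other annotated genes overlap Dusp1. The spread within each genotype was small beside the difference. Mapk14 (p38α) and Mapkapk2 (MK2), the kinases of that pathway, were not called, with log2 fold changes of -0.20 ± 0.10 and -0.09 ± 0.08 (SE) at edgeR adjusted p 0.4328 and 0.7069. Malt1 and Arid5a are named here after their values were seen. Malt1, the protease that cleaves Regnase-1 and Roquin proteins, was at 177, 191.9 and 139 CPM in WT and 138.4, 133.1 and 128.2 CPM in KO (log2 fold change 0.35, SE 0.10, edgeR adjusted p 0.07359). The edgeR adjusted p was 0.00839 without WT replicate 3 and 0.154 to 0.342 in the other 5 fits that left out one library, with 0.296 without WT replicate 2. Arid5a, which stabilises messages that Regnase-1 cuts, was at 106.4, 72.74 and 104 CPM in WT and 67.08, 75.22 and 62.68 CPM in KO (log2 fold change 0.47, SE 0.12). WT replicate 2 alone lay within the KO range, and the edgeR adjusted p was 0.0536 with it and 6e-04 without it. The list thus held 2 calls without WT replicate 2. Leaving out any of the other 5 libraries gave 0.0791 to 0.323.

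Messages known as targets of ZFP36, Regnase or Roquin proteins in some cell formed a list of 31 genes. Leaving out the members Zc3h12a and Zfp36, which are themselves such targets, 19 of 29 were tested. Of these, 1 was called higher and 3 lower in WT, or 21.1%. Over all tested genes 1.82% were called, 1.3% higher and 0.514% lower. With both included the median log2 fold change was -0.03, and it ranged from -0.185 without WT replicate 2 to 0.0467 without WT replicate 3, so that neither its size nor its sign was stable. It was -0.142 under limma-voom. Fos, the AP-1 subunit whose message carries an AU-rich element, was at 28.45, 56.88 and 40.98 CPM in WT and 12.47, 15.59 and 11.31 CPM in KO (log2 fold change 1.68, SE 0.21, edgeR adjusted p 5.708e-05). Tnf was at 8.325, 7.751 and 10.22 CPM in WT and 15.38, 20.17 and 14.82 CPM in KO (log2 fold change -0.94, SE 0.23, edgeR adjusted p 0.03036). Fos was higher and Tnf lower in WT, and they carry the heptamer 2 and 8 times. Irf4, a transcription factor of activated B cells and plasma cells, was at 330.6, 401.6 and 388 CPM in WT and 456.4, 488.7 and 507.3 CPM in KO (log2 fold change -0.38, SE 0.07, edgeR adjusted p 0.004305), a call lost without WT replicate 1 (0.0548) or KO replicate 3 (0.0696). Klf2, which keeps lymphocytes quiescent, was at 2151, 2003 and 2205 CPM in WT and 2555, 2423 and 2482 CPM in KO (log2 fold change -0.23, SE 0.06, edgeR adjusted p 0.0381). Tnf and Klf2 each passed in only 1 of 6 fits on 5 libraries, the one without WT replicate 3, and the list held 1 to 4 calls across those fits. Without WT replicate 2 the edgeR adjusted p was 0.07 for Tnf and 0.159 for Klf2. Tnf was also not called under limma-voom (0.0516). With 1 called gene in the list without WT replicate 1 or without KO replicate 3 (Fos), the count of calls lower in WT rested on single libraries.

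**Figure D4:**
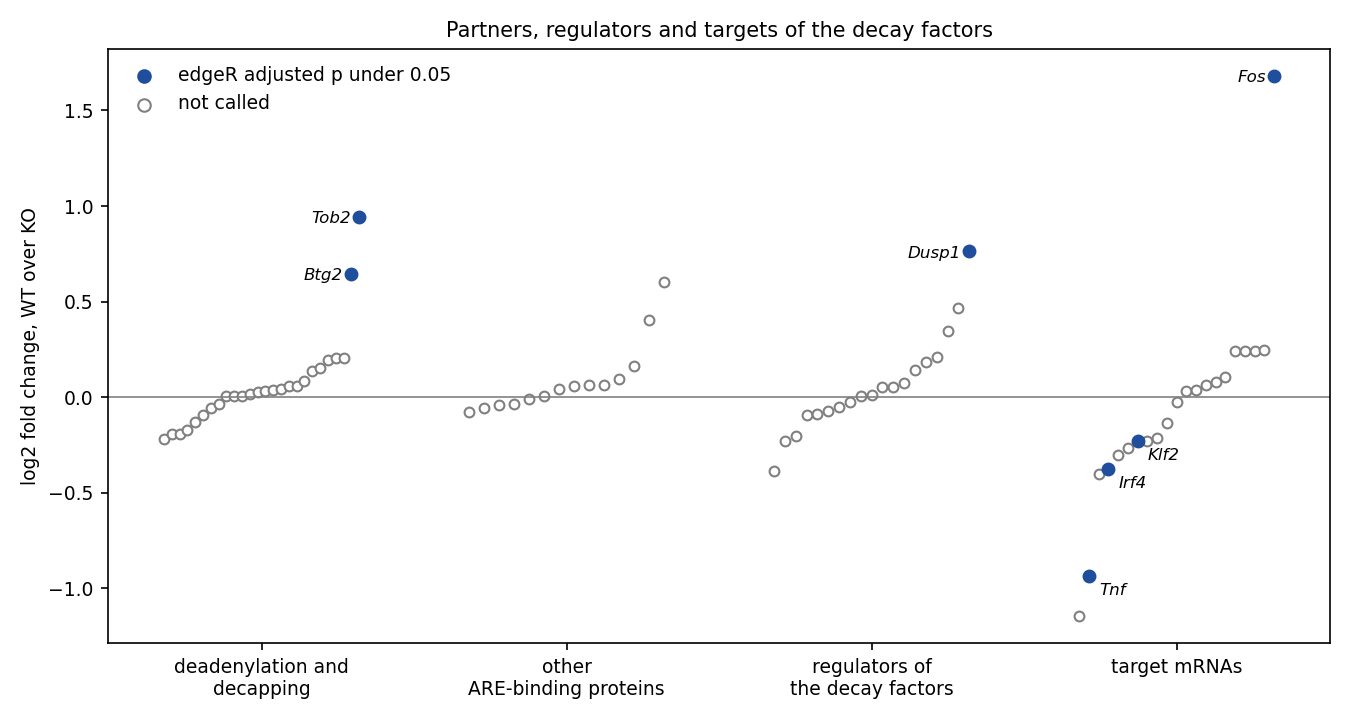
Log2 fold change, WT over KO (y axis), of each tested gene in 4 lists of genes around the decay factors (x axis), sorted within each list, with called genes in blue and named. Tob2, Btg2, Dusp1 and Fos are called above 0, from 0.65 to 1.68, and Klf2, Irf4 and Tnf below 0, from -0.23 to -0.94, and most other genes lie near 0.

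The AU-rich heptamer was also counted over all tested genes, to describe the messages that carry the ZFP36 site as a whole. Genes with 0, 1, 2 and 3 or more heptamers numbered 6368, 1822, 639 and 376, with median log2 fold changes of -0.01, 0.02, 0.03 and 0.04. Calls higher in WT made up 1.1%, 1.76%, 2.5% and 2.93% of these classes, and calls lower in WT 0.487%, 0.768%, 0.313% and 0.266%. The median length of the 3′ UTR rose along with the heptamers, at 875, 1904, 2620 and 3309 bases, and its part in these shares was not tested. In the class with 3 or more, 11 genes were called higher and 1 lower, and the counts behind the lower shares are small.

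**Figure D5:**
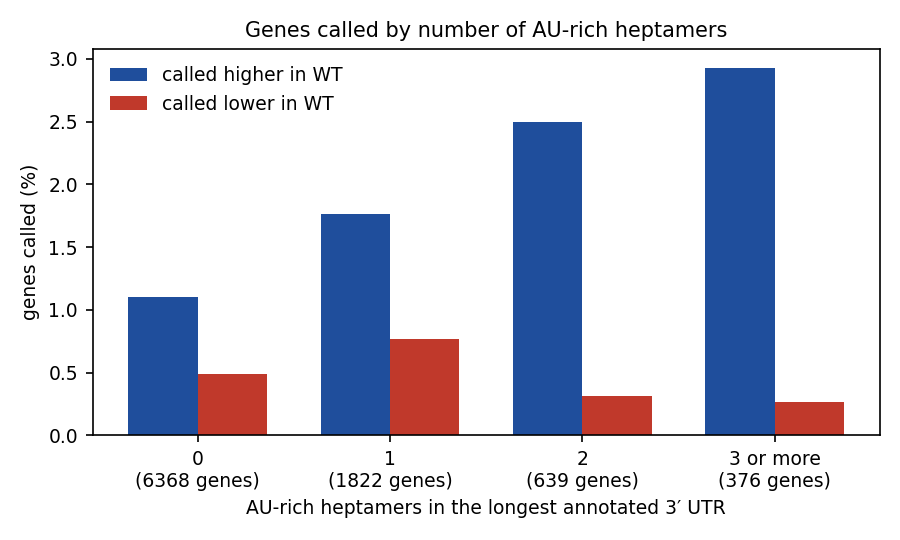
Share of tested genes called higher (blue) or lower (red) in WT (y axis, percent, from 0) by the number of AU-rich heptamers in the longest annotated 3′ UTR (x axis, with the number of genes in each class). The share called higher runs from 1.1% with 0 heptamers to 2.93% with 3 or more. The share called lower is 0.487%, 0.768%, 0.313% and 0.266% with 0, 1, 2 and 3 or more, and the last of these shares rests on 1 gene.

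Because cAMP acts on transcription through the cAMP response element, the promoters of the members were searched for the full element TGACGTCA and for its shorter core TGACG on either strand, which the full element contains. The windows spanned the transcript start and the bases just before it (RefSeq, GRCm38.p6) and were given for all members but Zfp36l2. The full element was found in 0 of these 6 windows and in 1.79% of the 32851 windows of the table. The core was found in 1 of the 6, that of Zc3h12a, and in 20.8% of all windows. Among genes of the 4 lists, the full element was found for the called genes Btg2 and Dusp1 and also for Ppp2ca and Nfkbid, which were not called (edgeR adjusted p 0.8571 and 0.7781). It was not in the windows of the called genes Tob2, Fos, Tnf, Irf4 and Klf2. Whether the element went with the calls was not tested. Fos, Klf2 and several uncalled genes held the core alone. The only match in a member is shown with the full elements of Btg2 and Dusp1 as examples of the complete letters, with the element or core in capitals.
Zc3h12a, chr4:125127859-125127886, minus strand: ccggcttccgCGTCAttgcccttaaagc
Btg2, chr1:134079304-134079331, minus strand: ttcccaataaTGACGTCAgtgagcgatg
Dusp1, chr17:26508598-26508625, minus strand: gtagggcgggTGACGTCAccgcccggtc
Relative to the RefSeq start, the Zc3h12a match lies 5 bases past it and those of Btg2 and Dusp1 at -166 and -143. In the gene span given above, Zc3h12a starts at 125127840, and the match lies before that start. The 2 annotations thus differ on whether the Zc3h12a match is within the transcript. A match, or none, says only which letters these windows hold.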

How the data were processed

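Libraries from 3 WT and 3 KO mice were grouped by their titles. The authors primed libraries at 3′ ends (QuantSeq), and their notes name STAR for alignment to mm10, HTSeq for counting and DESeq2. Versions, annotation and use of strand are not given in the sources used here. The deposited table holds unnormalized counts of reads for each gene and library. The smallest row total was 10 counts and 0 sample columns were left unused. No use of molecular identifiers is described. Replicates were compared only to find a library deposited more than once, and none was found (chi-square per degree of freedom 6.89 to 10.9, which includes variation between mice).

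Genes were filtered with filterByExpr and tested with edgeR's quasi-likelihood F test (edgeR 4.0.16, R 4.3.3) with TMM factors and robust dispersions, two-sided, with a threshold of 0.05 on Benjamini-Hochberg adjusted p over all 10514 genes. SE was taken as the size of the log2 fold change over the root of F, and intervals are 95%. CPM uses TMM-scaled library sizes. DESeq2 1.42.0, limma 3.58.1 (voom), other scalings, filters and dispersions, a replicate block and omission of each library were alternatives. The test was checked on simulated counts. Members and lists were chosen with earlier results of these data known, so no test was made over a list. Named genes were the members, called genes of each list (or its largest value where none was called) and the 3 nearest patterns to the member with the smallest p. Uncalled genes named beyond this rule were chosen after their values were seen. Sites were counted in GENCODE M21 transcripts with an annotated stop codon.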

Additional observations from a re-analysis of the deposited data

How the results depend on the processing

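Of the 7 members, Zfp36l1, Zc3h12a, Rc3h1 and Rc3h2 kept their direction and stayed above the threshold in all 15 alternatives. Zc3h12d kept its direction in all 15, and its edgeR adjusted p of 0.157 became 0.00195 (DESeq2), 0.0176 (voom in limma) and 0.0142 (ordinary dispersions), so that 1 member was called in each, and ranged from 0.000245 to 0.342 across fits that left out one library, with 0 or 1 member called. Across those 6 fits the adjusted p ranged from 0.385 to 0.949 for Zfp36 and from 0.675 to 0.983 for Zfp36l2, each with 1 change of direction, and the gap between inducible and constitutive members from -0.0464 to 0.15. Counts of calls ranged from 91 (without KO replicate 3, and 113 without KO replicate 2) to 183 over all genes, from 1 to 2 among regulators and from 1 to 4 among targets. Regulators held 2 calls with DESeq2, with a minimum mean of 50 counts and with no filter, through Arid5a each time. Of the targets, 6 were called under DESeq2 and 3 under limma-voom. Tob2, Btg2, Dusp1 and Fos were called in all 15. The cause of these changes was not tested, and the fits that omitted a library also rested on fewer libraries. Zfp36l2, at 137 to 301 counts, is the member that depth limits most.

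Replicate numbers in the labels are shared by both genotypes but nothing says that they pair mice, and deviations of same-numbered libraries correlated at 0.0743, 0.0314 and 0.0694, under 0.1. Each library correlated best with its own number, which is a hint from the data and not from the design. With the replicate number as a block, 281 genes were called against 191, Zc3h12d had an adjusted p of 0.000123 and was the 1 member called, regulators held 2 calls (with Malt1 at 0.0347) and targets 6.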

Other observations

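Among the 15 tested targets of the decay factors that were not called, members left out, 4 had an unadjusted edgeR p under 0.05. Over all tested genes, called ones included, 11.9% passed. The 4 genes are named after their values were seen. Rel, the NF-κB subunit whose message Regnase-1 and Roquin proteins restrain, was at 464.8, 477.8 and 500.7 CPM in WT and 395.2, 427.9 and 397 CPM in KO (log2 fold change 0.24, SE 0.07, edgeR adjusted p 0.05905). It was called under DESeq2 (0.0126) and with a mean of at least 50 counts (0.0438), but not under limma-voom (0.0646) or when any 1 of the 6 libraries was omitted (0.0827 to 0.296). Mcl1, a survival factor of the BCL2 family, was at 951.9, 1082 and 928.5 CPM in WT and 1202, 1076 and 1196 CPM in KO, with an edgeR adjusted p of 0.08879 that was 0.0153 without WT replicate 2, 0.0755 to 0.397 without any other library, 0.0459 under DESeq2 and 0.0618 under limma-voom. Irf8, a transcription factor of B and myeloid cells, was at 794.8, 1087 and 1049 CPM in WT and 1048, 1240 and 1236 CPM in KO (log2 fold change -0.27, SE 0.11, edgeR adjusted p 0.4015), with overlapping groups. Gm20388 overlaps Irf8 on the same strand. Ccnd3, a D-type cyclin, was at 3.842, 2.027 and 3.633 CPM in WT and 8.829, 4.906 and 7.409 CPM in KO (log2 fold change -1.15, SE 0.38, edgeR adjusted p 0.1468), and overlaps Bysl on the opposite strand.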
